A study of Rattus norvegicus with 6 samples.

Results

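Long noncoding RNA (lncRNA) genes make transcripts that are spliced and processed much like messenger RNA but are not annotated to encode a protein. Some act on chromatin or in nuclear bodies, some serve mainly as carriers whose introns release small nucleolar RNAs (snoRNAs) or microRNAs, and some are transcribed head to head with a coding gene from a shared promoter region. Many rat lncRNA genes have no name and no known role, so position beside a coding gene is often the only annotation they have.

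The genes described here are the rows of the deposited gene count table that are typed lncRNA and reach a mean of at least 2 counts per 1000000 counts (CPM) over all 6 libraries; they were thus selected on their raw count as a share of each library's total, taken over both cell sources together. Of 2311 rows typed lncRNA among 30498 rows, 314 met that rule and 1997 did not, 665 of them with no count in any library. The table gives a type only to rows without a gene symbol, so all 314 genes are unnamed, and H19, Tug1 and other named lncRNA genes lie outside the rule. Each gene is therefore identified by its place in the rat genome (build mRatBN7.2, the files' own coordinates) and by its nearest protein-coding gene.

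RNA was sequenced from 3 libraries of rcMSC, mesenchymal stem cells of cranial bone marrow, and from 3 libraries of rbMSC, mesenchymal stem cells of femur and tibia bone marrow, all from wild-type rats. The series compares expression between both cell sources, which were studied for transplantation after spinal cord injury. No label says whether the 3 libraries of a source come from separate animals or cultures, so the p-values measure the spread between libraries, which may be technical. The labels used here give no age, strain or sex of the rats and no culture passage.

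The rcMSC libraries held 26928079, 26775456 and 26179769 counts and the rbMSC libraries 21340290, 23030159 and 25170868, so 1 count was worth 0.0371 to 0.0469 CPM. All 9 stromal marker genes checked were detected, with 4 higher and 5 lower in rcMSC, and their summed level was 60872 to 70508 CPM in rcMSC against 42030 to 42269 CPM in rbMSC. Most of this sum was Col1a1 (mean 37642 CPM in rcMSC, 21255 CPM in rbMSC) and Col1a2 (23110 and 15930 CPM). Cd44 and Eng were also higher, and the 5 lower genes were Thy1, Itgb1, Nt5e, Pdgfra and Pdgfrb. Of 12 macrophage markers none was higher and 7 were lower, and their sum was 540 to 574 CPM in rcMSC against 929 to 939 CPM in rbMSC. The 8 cell cycle genes were all lower, with sums of 108 to 124 CPM in rcMSC against 268 to 272 CPM in rbMSC. Endothelial markers (5 genes, 1 higher and 1 lower) summed to 15.2 to 16.1 CPM in rcMSC against 13.4 to 15.3 CPM in rbMSC, and of 12 lymphoid, neutrophil and erythroid markers, with Cd3g and Elane at 0, the sum was 0.112 to 0.229 CPM in rcMSC and 0.0469 to 0.347 CPM in rbMSC. The part of these cell populations in the lncRNA differences below was not tested, and in bulk RNA fewer cells of a type and less RNA per cell cannot be told apart. The third rcMSC library stood apart from the other rcMSC libraries: the chi-square per degree of freedom over genes was 42.8 and 42.0 in its pairs, against 2.69 to 3.16 in all other pairs within a group. Among the 314 lncRNA genes it lay outside the range of the other rcMSC libraries in 254, above both in 135 and below both in 119. Of 3 alike libraries, any given library also lies outside the range of the others in most genes.

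The 314 genes were expressed at low to high levels and took a smaller share of the counts in rcMSC. Their share was 0.777%, 0.762% and 0.764% in the rcMSC libraries and 0.904%, 0.907% and 0.895% in the rbMSC libraries, with no overlap between the cell sources. Mean levels ran between 2.01 and 963 CPM with a median of 6.77 CPM. A few genes carried much of this signal: 126 reached 10 CPM, 31 reached 50 CPM and 13 reached 100 CPM, and the 5 most abundant held 31.4% of all counts in the set. Per 1000 bases of exon the median level was 2.82 CPM, against 7.34 CPM for protein-coding rows of at least 2 CPM. The genes had a median exon length of 2558.5 bases against 1425 bases for lncRNA rows under 2 CPM, and 121 of them (38.5%) had a single exon against 302 (15.1%) of the rows under 2 CPM.

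More of these lncRNA genes were lower than higher in rcMSC. In edgeR's quasi-likelihood test across the whole table, with Benjamini-Hochberg adjustment over 14836 genes and a threshold of 0.05, 37 were higher and 103 were lower in rcMSC, and 174 did not pass. Over all genes tested, 45.8% were called, 22.6% higher and 23.2% lower, so the 44.6% of lncRNA genes called in either direction was close to the background while the split between directions was 11.8% higher and 32.8% lower. Among protein-coding rows of at least 2 CPM the split was 24.7% higher and 24.4% lower. All 314 lncRNA genes passed the low-count filter. A difference between the cell sources can carry a gene over the level rule: 276 genes reached 2 CPM in both group means, 10 only in the rcMSC mean and 28 only in the rbMSC mean. The median log2 fold change, rcMSC over rbMSC, was -0.21 over the lncRNA genes and 0.02 over all genes tested, and 213 of the 314 values were below 0.

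Of the 314 lncRNA genes, 13 (4.14%) were called and at least 2-fold higher in rcMSC, and 46 (14.6%) were called and at least 2-fold lower. The same shares were 5.76% and 8.53% over all genes tested, and 4.65% and 6.84% over tested genes of at least 2 CPM. Among the 276 genes that reached 2 CPM in both group means, an alternative chosen after seeing the data, 31 rose and 80 fell, and 7 were at least 2-fold higher and 29 at least 2-fold lower. The libraries of both sources did not overlap in 177 genes, 56.4% of them against 54.8% of all genes tested, with rcMSC above in 44 and below in 133, against 25.1% above and 29.7% below over all genes tested. By level, 9 rose and 43 fell of the 126 between 2 and 5 CPM, 8 and 22 of the 62 between 5 and 10 CPM, 17 and 26 of the 95 between 10 and 50 CPM, and 3 and 12 of the 31 at 50 CPM or more. From the lowest of these bins to the highest, the median log2 fold change was -0.42, -0.25, -0.06 and -0.09. Protein-coding rows had medians between -0.002 and 0.04 in the same bins. Between 10 and 50 CPM, 17.9% of lncRNA genes and 25.7% of coding rows were higher, and 27.4% and 23.1% were lower. Without the third rcMSC library, 48 rose and 151 fell, and all 140 calls made with 6 libraries remained.

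**Figure D1:**
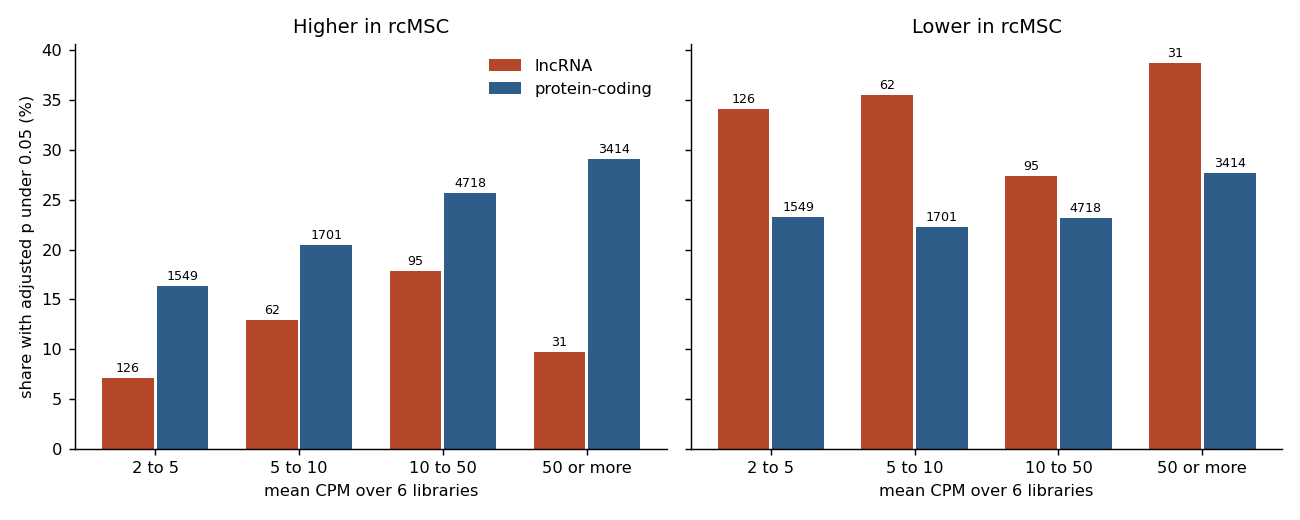
Share (y axis, %) of lncRNA genes (red) and protein-coding rows (blue) with an adjusted p under 0.05, higher in rcMSC on the left and lower in rcMSC on the right, by mean CPM (x axis); numbers above bars count genes. In the lowest bin 34.1% of the 126 lncRNA genes and 23.2% of the 1549 coding rows were lower in rcMSC, and 7.14% and 16.3% were higher.

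The 8 largest rises and 8 largest falls were taken only from genes that passed the test without overlap between the sources. Several of them reached 2 CPM only in the mean of the source where they were higher. The 2 largest rises lay beside homeobox genes of the head and limb mesenchyme. The gene with the largest, ENSRNOG00000067044 on the plus strand of chr7:38177340-38179883, starts 119 bases from the start of Alx1 on the opposite strand; Alx1 encodes a homeodomain factor of the frontonasal skeleton. It had 5.61, 5.04 and 5.23 CPM in rcMSC (151, 135 and 137 counts) and 0, 0.130 and 0.0397 CPM in rbMSC (0, 3 and 1 counts). It was thus near absent from every rbMSC library and clearly present in every rcMSC library. It met the level rule only through rcMSC, with group means of 5.29 CPM in rcMSC and 0.0567 CPM in rbMSC. The ratio of summed CPM was 92.1 with an exact 95% binomial interval of 35.7 to 339, which covers counting error only, and the edgeR log2 fold change was 6.41 ± 0.40 (SE, adjusted p = 7.46e-07). It became 7.66 without the second rbMSC library, which holds 3 of the 4 rbMSC counts. Alx1 itself averaged 25.7 ± 2.47 CPM in rcMSC and 0.182 ± 0.121 CPM in rbMSC (SD, n = 3 each), so that its log2 fold change was 7.07.

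ENSRNOG00000062648, on the minus strand of chr3:14169402-14189337, ends 866 bases from the end of Prrx2, a paired-related homeobox gene of craniofacial and limb mesenchyme. Its level was 9.73, 9.08 and 5.88 CPM in rcMSC and 0.890, 0.912 and 1.31 CPM in rbMSC. The lowest rcMSC library was well above the highest rbMSC library, and the log2 fold change was 2.97 ± 0.24 (SE, adjusted p = 4.50e-06). Prrx2 rose by less, with 86.0 ± 12.5 CPM in rcMSC against 32.8 ± 2.40 CPM in rbMSC (SD, n = 3 each) and a log2 fold change of 1.41.

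A long gene at chr1:53488407-53559556, upstream of Smok2a, had 9.32, 7.51 and 9.36 CPM in rcMSC and 1.45, 1.17 and 1.83 CPM in rbMSC. Its log2 fold change was 2.56 ± 0.20 (SE), while Smok2a was close to 0 in both sources, at 0.0252 CPM in rcMSC and 0.0265 CPM in rbMSC. The gene shares 880 exon bases with a row of the other strand. A gene at chr18:25404131-25405980, whose end lies 76 bases from the end of Epb41l4a, had 34.4, 38.7 and 17.6 CPM in rcMSC and 7.73, 7.90 and 11.1 CPM in rbMSC. The third rcMSC library was the lowest of the rcMSC libraries there, still above every rbMSC library, and the log2 fold change was 1.75 against 0.27 for Epb41l4a, a FERM-domain gene that did not pass the test.

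Smaller rises were found beside Trabd2b, which encodes a membrane protease that inactivates Wnt proteins, and beside Adcy7, an adenylate cyclase. The gene downstream of Trabd2b had 4.86, 5.49 and 5.73 CPM in rcMSC and 2.11, 2.48 and 1.91 CPM in rbMSC (log2 fold change 1.32) beside 1.29 for Trabd2b. Upstream of Adcy7 the level was 4.01, 3.81 and 5.12 CPM in rcMSC against 1.45, 1.87 and 1.91 CPM in rbMSC (log2 fold change 1.31) beside 1.25 for Adcy7. In both places the libraries of the sources did not overlap, as the choice of the largest rises required. The remaining members of the 8 largest rises, on chromosomes 10 and 5, span snoRNA rows and are described with them.

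The largest falls included a pair of genes beyond the thyroid hormone receptor gene Thrb. ENSRNOG00000069181 (chr15:7963142-7967231), 80225 bases from Thrb, had 0.854, 0.747 and 0.802 CPM in rcMSC and 9.47, 7.73 and 7.47 CPM in rbMSC. Every rcMSC library was below 1 CPM and every rbMSC library above 7 CPM, with a log2 fold change of -3.34 ± 0.19 (SE, adjusted p = 3.66e-07). A second gene farther out (chr15:8017311-8028588) had 2.19, 1.98 and 2.90 CPM in rcMSC and 11.5, 11.2 and 12.2 CPM in rbMSC (log2 fold change -2.29). Thrb was lower too, by less, with 18.5 ± 2.13 CPM in rcMSC and 60.8 ± 2.39 CPM in rbMSC (SD, n = 3 each) and a log2 fold change of -1.71.

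Genes just past the ends of Myocd and Fbxo32 fell together with them. ENSRNOG00000067151 (chr10:49833365-49835784, same strand, 856 bases beyond Myocd, which encodes a coactivator of smooth muscle genes) had 2.27, 2.46 and 5.12 CPM in rcMSC and 22.4, 19.8 and 21.3 CPM in rbMSC. All rcMSC libraries were far below the rbMSC libraries, with the third the highest of them, and the log2 fold change was -2.67 ± 0.28 (SE) beside -2.62 for Myocd. The gene 555 bases beyond Fbxo32, the substrate receptor of a ubiquitin ligase of muscle atrophy, had 16.9, 17.7 and 17.3 CPM in rcMSC and 92.8, 95.5 and 95.4 CPM in rbMSC. Libraries of one source were nearly equal there, and the log2 fold changes were -2.44 ± 0.07 for the lncRNA and -2.59 ± 0.09 for Fbxo32 (SE).

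The other large falls exceeded those of their neighbours. A gene whose end lies 85 bases before the start of Zfp622 had 0.780, 0.822 and 0.535 CPM in rcMSC and 3.84, 5.04 and 4.53 CPM in rbMSC (log2 fold change -2.63), while Zfp622 stood at -0.26 and did not pass. The gene 27917 bases from Ints10, an Integrator subunit, had 1.37, 1.08 and 1.60 CPM in rcMSC and 8.95, 6.69 and 8.70 CPM in rbMSC (log2 fold change -2.57) beside -0.22 for Ints10, which passed. At 109802 bases from Rasgrp1, a Ras exchange factor, the level was 0.928, 0.672 and 0.955 CPM in rcMSC against 4.17, 4.73 and 4.93 CPM in rbMSC (log2 fold change -2.42, with Rasgrp1 at -0.51 and not passing). Upstream of Cyrib, a Rac1-binding protein gene, it was 0.668, 1.01 and 1.18 CPM in rcMSC against 4.36, 5.64 and 4.01 CPM in rbMSC (log2 fold change -2.28, with Cyrib at -0.19 and passing). In each of these the highest rcMSC library was below the lowest rbMSC library and the lncRNA passed the test, as the choice required.

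**Figure D2:**
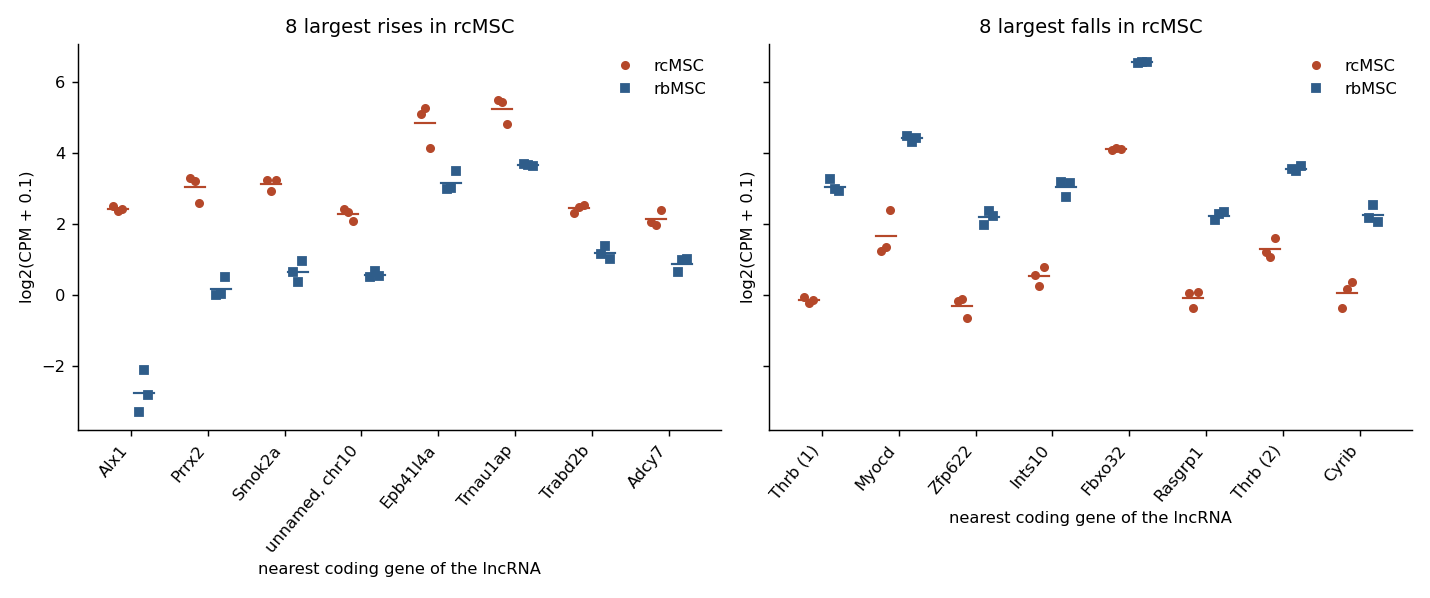
Level of the 8 lncRNA genes with the largest rises (left) and the 8 with the largest falls (right) in rcMSC, as log2(CPM + 0.1) on the y axis for each library (points) with the mean of the 3 log values (line), rcMSC as red circles and rbMSC as blue squares; the x axis names the nearest coding gene. The gene beside Alx1 had 0 to 3 counts in the rbMSC libraries, and the third rcMSC library was the highest at Myocd and the lowest at Epb41l4a among the rcMSC libraries.

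Of the 13 lncRNA genes at 100 CPM or more, 10 lay tandem downstream of a coding gene, 9 of them within 5000 bases of it. The most abundant was on the minus strand of chr10:85882413-85884081, 4954 bases beyond a coding gene with no symbol in the table. It had 883, 909 and 876 CPM in rcMSC and 1034, 980 and 1094 CPM in rbMSC, with no overlap and a log2 fold change of -0.21 ± 0.06 (SE, adjusted p = 0.0163). This call was lost when any one of 4 of the 6 libraries was left out (adjusted p = 0.0515 to 0.0979). The gene shares 1513 exon bases with a plus-strand lncRNA row.

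Downstream of Col8a1, a short-chain collagen gene, the lncRNA had 359, 332 and 298 CPM in rcMSC and 655, 673 and 679 CPM in rbMSC. Its log2 fold change of -1.01 ± 0.06 (SE, adjusted p = 5.41e-07) stood beside -1.22 for Col8a1. Downstream of Lpp, a LIM-domain gene of focal adhesions, the values were 243, 240 and 261 CPM in rcMSC against 449, 458 and 435 CPM in rbMSC (log2 fold change -0.84), beside -0.82 for Lpp. Pappa1 encodes a protease of IGF-binding proteins; the lncRNA beyond it rose, with 561, 533 and 545 CPM in rcMSC against 393, 393 and 379 CPM in rbMSC (log2 fold change 0.50) beside 0.40 for the gene.

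Beyond Npr3, the clearance receptor of natriuretic peptides, the lncRNA had 421, 393 and 293 CPM in rcMSC and 326, 328 and 317 CPM in rbMSC. The third rcMSC library was below all rbMSC libraries and the other rcMSC libraries above them, and the log2 fold change of 0.19 did not pass (adjusted p = 0.136); without the third rcMSC library it was 0.31 (adjusted p = 1.05e-10). Beyond Col5a1, a fibrillar collagen gene, the values were 295, 287 and 411 CPM in rcMSC against 307, 315 and 310 CPM in rbMSC. Here the third rcMSC library was above all others: the log2 fold change was 0.11 and did not pass with it, and was -0.11 (adjusted p = 0.00625) without it. Per 1000 bases the gene 34 bases beyond Map3k2, a MAP kinase kinase kinase, joined these at 82.8 CPM; it averaged 97.7 ± 8.35 CPM in rcMSC and 99.0 ± 8.22 CPM in rbMSC (SD, n = 3 each).

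At the threshold itself, the genes just above 2 CPM lay beside Nucb2 (2.20 CPM in rcMSC, 1.83 in rbMSC), Vezf1 (1.67 and 2.35) and Eipr1 (1.51 and 2.54). Just below it were a row on chromosome X near a coding gene with no symbol (1.72 CPM in rcMSC, 2.25 in rbMSC) and a row at chr8:41878576-41886463 (0.740 and 3.22). Rows nearest to the threshold were chosen on either side, so their overall means were similar by choice. The row on chromosome 8 was left out although it exceeded 2 CPM in rbMSC.

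Position differed between expressed and little-expressed lncRNA rows. Relative to the nearest coding gene, 162 of the 314 genes (51.6%) lay tandem downstream, on the same strand and beyond its 3' end, at a median gap of 1217.5 bases; 72 of them were within 1000 bases and 144 within 5000 bases. The same class held 13.9% of the lncRNA rows under 2 CPM and 13.2% of the protein-coding rows of at least 2 CPM. A further 43 genes lay tandem upstream, 33 were divergent (head to head within 5000 bases), 16 divergent at a larger gap, 26 convergent (tail to tail), 31 distant (over 50000 bases away) and 3 overlapped a coding gene. The 314 genes were spread over 21 chromosomes, with 14 on chromosome X and none on Y.

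The downstream share was larger in each higher bin of level. It was 11.4% of lncRNA rows with no count, 12.5% of those above 0 and under 0.1 CPM, 16.3% between 0.1 and 0.5, 21.6% between 0.5 and 2, 42.0% between 2 and 10, 61.1% between 10 and 50 and 80.6% of the 31 rows at 50 CPM or more. Mean level chose the genes and position did not enter the rule; no test was run on these shares. Per 1000 bases, a downstream lncRNA had a median of 0.512 of the level of the coding gene before it (quartiles 0.252 and 0.886), and 130 of the 162 were below that gene.

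**Figure D3:**
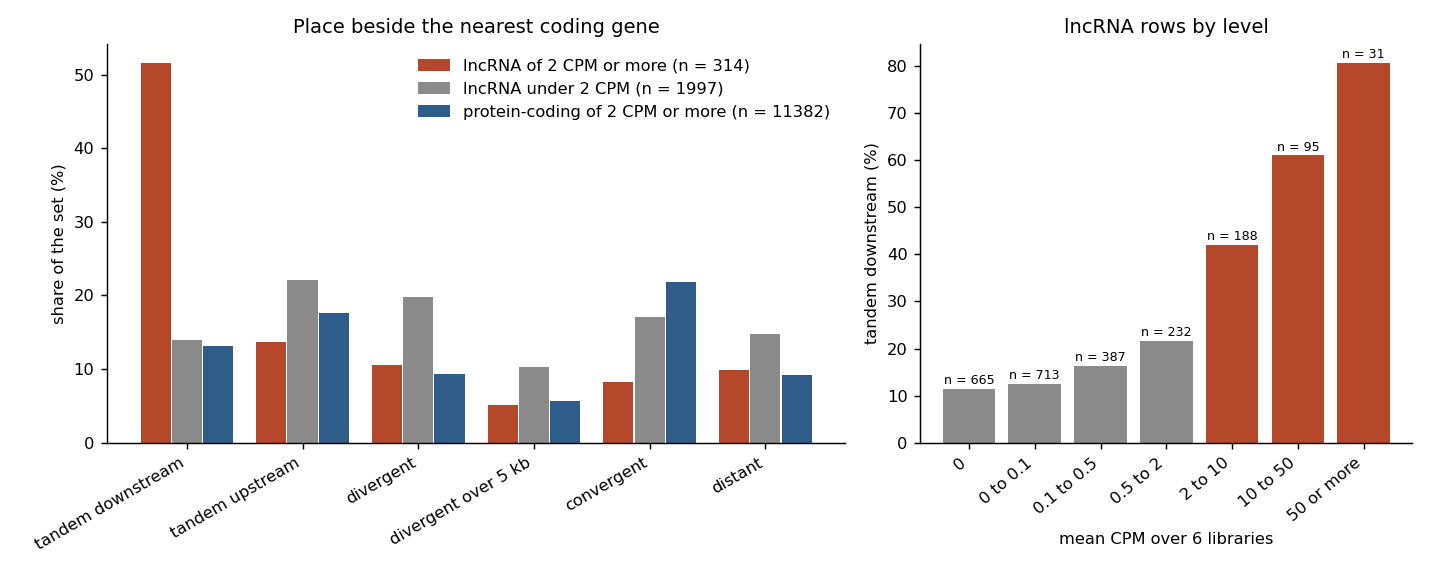
Left, share of each set (y axis, %) by place beside the nearest coding gene (x axis) for lncRNA of at least 2 CPM (red), lncRNA under 2 CPM (grey) and protein-coding rows of at least 2 CPM (blue). Right, share of lncRNA rows that lie tandem downstream (y axis, %) by mean CPM (x axis), 11.4% with no count and 80.6% at 50 CPM or more; the red bars are the 314 genes.

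Downstream lncRNA genes moved with the coding gene before them. Across 159 pairs with both genes tested, the log2 fold changes had Pearson r = 0.76 and Spearman rho = 0.77, with the same sign in 119 pairs and a median absolute difference of 0.15. These are correlations across genes measured in the same 6 libraries, and genes are not independent replicates. Within 1000 bases r was 0.76 (n = 72), and from 1000 to 5000 bases 0.75 (n = 72); among 110 pairs with no exon shared with the other strand it was 0.76. Protein-coding genes placed tandem downstream of another within 5000 bases gave r = 0.40 and rho = 0.07 (n = 514).

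Of the 162 downstream genes, 21 were higher (13%) and 43 lower (26.5%) in rcMSC, against 22.6% and 23.2% of all genes tested. Their median log2 fold change was -0.09. In 18 of the 21 the coding gene was higher too, and in 31 of the 43 it was lower too. The falls included the lncRNA beyond Plag1 (-2.21, Plag1 -2.33), a zinc finger factor, Tamalin (-1.74, Tamalin -1.85), Sntb1 (-1.66, Sntb1 -1.64), a syntrophin of the dystrophin complex, and Mme (-1.76, Mme -1.02), the membrane peptidase CD10. The rises included the lncRNA beyond Tgfbr3 (1.09, Tgfbr3 0.94), a TGF-beta co-receptor, Psat1 (1.01, Psat1 1.15), an enzyme of serine synthesis, and Gpc6 (0.66, Gpc6 0.72), a glypican. All 14 of these values passed the test; the genes were picked after their values were seen, as examples of pairs that moved together.

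One downstream pair was far from the others. The lncRNA 608 bases beyond Gpd1, glycerol-3-phosphate dehydrogenase, had 8.28, 7.10 and 5.46 CPM in rcMSC and 4.69, 5.38 and 5.48 CPM in rbMSC, which overlapped, with a log2 fold change of 0.43 (adjusted p = 0.0505). Gpd1 averaged 0.239 CPM in rcMSC and 2.24 CPM in rbMSC (log2 fold change -3.20). The lncRNA beyond Fam135a also parted from its neighbour, at 1.06 beside -0.11 for Fam135a, which did not pass.

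The other classes held fewer pairs. Tandem upstream, Pearson r was 0.29 and Spearman's rho 0.33 over 40 pairs, of which 26 had the same sign. In divergent pairs r was 0.93 and rho 0.52 over 32 pairs, with 18 of the same sign, but r was 0.40 without the 2 pairs farthest from the median, 1 of which is Alx1. In divergent pairs more than 5000 bases apart r was 0.43 and rho 0.68 over 13 pairs, with 10 of the same sign. In convergent pairs r was 0.36 and rho 0.30 over 20 pairs, with 15 of the same sign, and in distant pairs r was 0.31 and rho 0.23 over 19 pairs, with 9 of the same sign. Median absolute differences were 0.50 tandem upstream, 0.86 in convergent and 1.36 in distant pairs. Differences between the classes were not tested. Of 43 tandem upstream genes 20 fell (46.5%) and 2 rose (4.65%), with a median log2 fold change of -0.54. Of 31 distant genes 11 fell (35.5%) and 3 rose (9.68%), with a median of -0.85. The shares over all genes tested were 23.2% lower and 22.6% higher. Over all pairs with both genes tested (286), both were called in 87 and in opposite directions in 7, none of them tandem downstream or divergent.

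In all 7 opposite pairs the lncRNA was lower and the coding gene higher in rcMSC. Upstream of Mbnl1, a splicing factor gene, the lncRNA averaged 4.86 ± 1.26 CPM in rcMSC and 19.6 ± 1.32 CPM in rbMSC (SD, n = 3 each), while the log2 fold change of Mbnl1 was 0.23. Others lay 3549 bases from Slc16a4 and 23439 bases upstream of Zfp54. Some were distant from their nearest coding gene: a pair lay 60442 and 258097 bases from Zbtb20, and 1 lay about 1.76e+06 bases from a coding gene with no symbol.

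**Figure D4:**
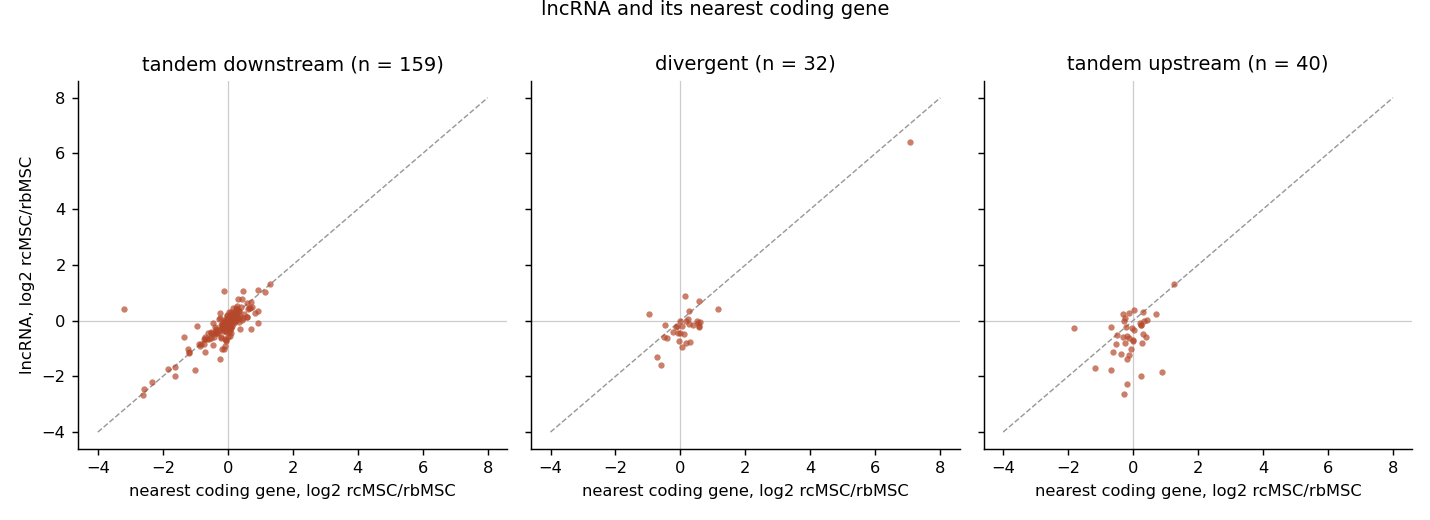
Log2 fold change, rcMSC over rbMSC, of a lncRNA gene (y axis) against that of its nearest coding gene (x axis), 1 point per pair with both tested, for tandem downstream, divergent and tandem upstream pairs; the dashed line marks equal values. Downstream points lie along the line with Gpd1 far to the left, Alx1 is the point at the upper right of the divergent pairs, and upstream points lie mostly below the line.

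Divergent lncRNA genes start within 5000 bases of the start of a coding gene, at a median gap of 279 bases. Of 33, 4 were higher (12.1%) and 8 lower (24.2%) in rcMSC, against 22.6% and 23.2% of all genes tested, so the lower share was near the background. Besides Alx1, the higher ones lay beside Slc3a2, the heavy chain of an amino acid transporter (0.71, Slc3a2 0.57), Irx5, an Iroquois homeobox gene (0.44, Irx5 1.16), and Cebpb, a leucine zipper factor (0.89, with Cebpb at 0.13 and not passing). Lower with the neighbour were those beside Zeb2, a zinc finger repressor (-1.61, Zeb2 -0.61), Gata2, a blood and endothelial factor (-1.32, Gata2 -0.71), and Chd3, a chromatin remodeller (-0.61, Chd3 -0.42). Beside Jun the lncRNA was lower (-0.46) and Jun, at -0.09, did not pass.

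The promoters of Alx1 and Slc3a2 are shown because the lncRNA start on the other strand close to them and both genes of each pair rose. They run 250 bases before to 50 bases after the coding gene's start (RefSeq, build GRCr8, not the build of the count table), 5' to 3' on the coding strand, with CG dinucleotides in capitals. The Alx1 window is chr7:40063729-40064028 and the Slc3a2 window chr1:215048015-215048314, both on the minus strand.
Alx1: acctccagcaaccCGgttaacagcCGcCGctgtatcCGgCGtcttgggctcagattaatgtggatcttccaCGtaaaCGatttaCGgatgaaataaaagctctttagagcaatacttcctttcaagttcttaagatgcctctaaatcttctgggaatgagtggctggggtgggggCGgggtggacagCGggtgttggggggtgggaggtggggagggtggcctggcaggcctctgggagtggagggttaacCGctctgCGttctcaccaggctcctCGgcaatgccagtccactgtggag
Slc3a2: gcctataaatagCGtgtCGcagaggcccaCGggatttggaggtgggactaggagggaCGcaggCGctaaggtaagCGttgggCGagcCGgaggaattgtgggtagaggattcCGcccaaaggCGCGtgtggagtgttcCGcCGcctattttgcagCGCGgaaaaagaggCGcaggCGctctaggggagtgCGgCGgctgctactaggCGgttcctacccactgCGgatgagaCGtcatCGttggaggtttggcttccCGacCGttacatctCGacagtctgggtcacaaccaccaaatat

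The Alx1 window holds 13 CG dinucleotides, an observed over expected ratio of 0.57, and the Slc3a2 window 26, a ratio of 1.02. The median ratio was 0.78 over the 22 promoters matched beside divergent lncRNA genes, 0.84 over 118 beside downstream lncRNA genes, 0.79 over 8840 promoters of coding rows of at least 2 CPM and 0.42 over all 27457 promoters. The letters TATAAA, searched on both strands, occur in the Slc3a2 window and not in the Alx1 window, and in 14.3% of all promoters; CCAAT, on both strands, occurs in neither and in 37.7% of all.

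Several of the genes span rows of small RNAs on their own strand: 13 did, with 19 snoRNA rows and 7 microRNA rows. SnoRNAs guide the chemical modification of ribosomal and other RNAs, and microRNAs pair through their seed to silence messenger RNAs; both are commonly cut from introns or exons of a host transcript. Of 9 that span snoRNA rows, 3 were higher, 2 lower and 4 did not pass. Of 5 that span microRNA rows, 2 were lower and 3 did not pass. Both kinds are spanned by 1 gene. Over all genes tested 22.6% were higher and 23.2% lower, so with sets this small the counts are no result about host genes.

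The 3 higher snoRNA-spanning genes all had non-overlapping libraries. The gene at chr10:101905070-101909650 had 5.27, 4.97 and 4.16 CPM in rcMSC and 1.31, 1.48 and 1.35 CPM in rbMSC (log2 fold change 1.80 ± 0.18 SE, adjusted p = 2.50e-05). At chr5:144504388-144507556, with 3 snoRNA rows and its end 58 bases from that of Trnau1ap, the level was 44.8, 42.8 and 28.0 CPM in rcMSC against 12.9, 12.5 and 12.3 CPM in rbMSC (log2 fold change 1.62) while Trnau1ap, a selenocysteine tRNA protein gene, did not pass (0.18). The gene divergent to Slc3a2 (chr1:205619205-205622461) spans SNORD22 and SNORD26 to SNORD31; it had 29.4, 26.2 and 20.7 CPM in rcMSC and 16.0, 17.4 and 13.5 CPM in rbMSC.

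The snoRNA rows inside this last gene had few counts. SNORD22 had 194, 104 and 113 counts in rcMSC and 71, 80 and 77 in rbMSC (log2 fold change 0.65, adjusted p = 0.0407), and none of the other 6 rows passed. Lower in rcMSC were the gene at chr9:41826724-41829950 beyond Rnf149, which spans Snord89, with 2.04, 2.35 and 3.90 CPM in rcMSC against 8.25, 7.77 and 5.56 CPM in rbMSC (log2 fold change -1.36), and a gene on chromosome 2 with 1.63, 1.57 and 0.993 CPM in rcMSC against 3.56, 3.17 and 2.90 CPM in rbMSC (-1.19). Libraries of the sources did not overlap in either. The gene beyond Snrpn that spans Snord107 had 2.12, 1.72 and 3.78 CPM in rcMSC and 3.56, 3.04 and 3.42 CPM in rbMSC; it did not pass (-0.38), and stood at -0.82 (adjusted p = 0.00168) without the third rcMSC library.

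The most abundant microRNA-spanning gene holds Mir143 and Mir145, microRNAs known from smooth muscle and other mesenchymal cells. On the minus strand of chr18:55095230-55118825, it had 140, 137 and 177 CPM in rcMSC and 316, 294 and 286 CPM in rbMSC. Every rcMSC library was below every rbMSC library, and the log2 fold change was -0.97 ± 0.12 (SE, adjusted p = 2.10e-04). The Mir143 row inside it had 48, 50 and 63 counts in rcMSC and 77, 71 and 75 in rbMSC (log2 fold change -0.66, adjusted p = 0.0266). These counts come from a long-RNA library and do not measure the mature microRNA. The Mir325-spanning gene on chromosome X had 1.82, 2.02 and 1.80 CPM in rcMSC and 3.51, 4.21 and 3.22 CPM in rbMSC (log2 fold change -0.95, adjusted p = 0.00255).

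Those spanning Mir100 (10.7, 10.2 and 14.1 CPM in rcMSC, 12.2, 11.9 and 11.5 CPM in rbMSC), Mir421 and Mir374b (14.0, 14.7 and 16.8 CPM in rcMSC, 17.2, 17.6 and 18.1 CPM in rbMSC) and Mir1949 with SNORA74 (4.49, 4.78 and 4.01 CPM in rcMSC, 5.25, 5.69 and 4.01 CPM in rbMSC) did not pass. The Mir421 gene nevertheless had all rcMSC libraries below all rbMSC libraries, and its log2 fold change of -0.21 became -0.32 (adjusted p = 0.00357) without the third rcMSC library. The row at chr8:41878576-41886463 that fell just short of 2 CPM lies within the body of the Mir100 gene on the other strand; its log2 fold change was -2.10, against -0.01 for the Mir100 gene.

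Mature sequences of the microRNAs within the called genes and of Mir100 are given from RefSeq (GRCr8), 5' to 3', with the seed, bases 2 to 8, in capitals. All 8 microRNA rows matched RefSeq entries, with 15 mature forms and 15 different seeds, so none of them shares a seed.
rno-miR-143-3p: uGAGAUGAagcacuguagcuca
rno-miR-143-5p: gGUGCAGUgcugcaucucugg
rno-miR-145-5p: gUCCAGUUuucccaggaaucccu
rno-miR-145-3p: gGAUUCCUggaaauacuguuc
rno-miR-325-3p: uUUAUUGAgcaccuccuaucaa
rno-miR-325-5p: cCUAGUAGgugcucaguaagugu
rno-miR-100-5p: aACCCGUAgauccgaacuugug
rno-miR-100-3p: cAAGCUUGugucuauaggu

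**Figure D5:**
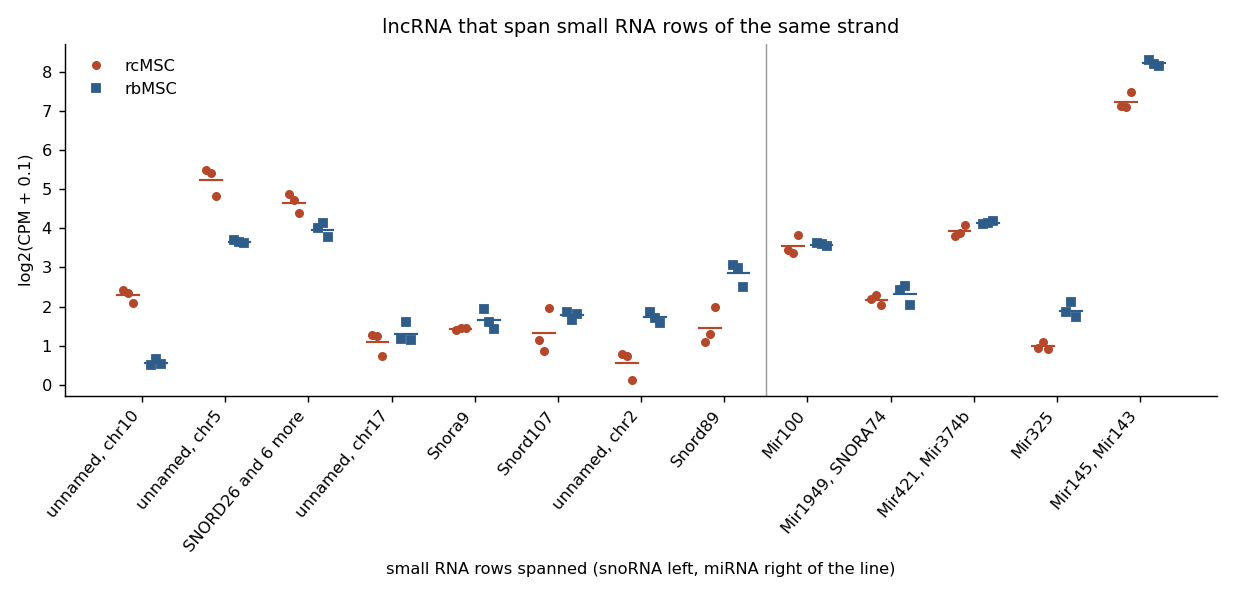
Level of the 13 lncRNA genes that span small RNA rows of their own strand, as log2(CPM + 0.1) (y axis) for each library (points) with the mean of the 3 log values (line), rcMSC as red circles and rbMSC as blue squares; snoRNA-spanning genes are left of the line and microRNA-spanning genes right of it. The gene with Mir145 and Mir143 is the most abundant and is lower in every rcMSC library, and the 3 leftmost genes are higher in every rcMSC library.

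Exons on both strands limit what a count can be assigned to, since no source used here states the strand setting of the counting. Of the 314 genes, 92 share exon bases with a row of the other strand, 10 with a row of the same strand and 215 with none. Among 24 genes whose exons lie at least 95% within a row of the other strand, the lowest count was 530. In 20 of them the other row had under 10% of the gene's counts. The level rule demands counts of the gene itself but sets no limit on the counts of the other row. How reads were assigned by strand was not tested. In 79 distinct pairs the minor row had under 10% of the major row's counts. The median of its share was 0.586%, 0.707% and 0.495% in the rcMSC libraries and 0.849%, 1.41% and 0.877% in the rbMSC libraries. Summed over the pairs, the share was 1.40%, 1.65% and 1.17% in rcMSC and 1.14%, 1.41% and 1.36% in rbMSC, which overlapped. In 5 of these pairs the lncRNA gene is itself the minor row, among them the plus-strand gene at the most abundant locus on chromosome 10 (5.57 CPM, log2 fold change -0.93), and those opposite to the lncRNA beyond Lpp (4.05 CPM, -1.16) and opposite to Gpx3 (2.65 CPM, -0.53 beside -0.09 for Gpx3). The part of the minor rows in the lower calls was not tested; without any gene that shares an exon base, 22 of 215 genes rose and 75 fell.

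Some of the genes lay beside the same coding gene: 44 genes beside 20 coding genes, with all log2 fold changes of 1 sign at 15 of the 20. Among these were the pair at Thrb, the pair upstream of Cyrib (-1.39 and -2.28) and the pair far from Klf14 on chromosome 4 (-1.39, and -1.01 which did not pass). At the start of chromosome 2, 5 genes between positions 602433 and 787844 had log2 fold changes from -1.16 to -0.85, of which 1 passed. The third rcMSC library was the highest of the rcMSC libraries in all 5: ENSRNOG00000068515 had 36, 42 and 255 counts in rcMSC and 180, 198 and 186 in rbMSC. Without that library the 5 log2 fold changes ran from -2.50 to -1.25 and all 5 passed. Genes of such groups may share transcripts and are not independent.

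The protein-coding genes of pathways in which lncRNAs take part were read from the same fit, in which 22.6% of all genes tested were higher and 23.2% lower. Of 7 snoRNP proteins tested, which package snoRNAs, 4 were higher and none lower, with Nop10 at a log2 fold change of 0.78 and Gar1 at 0.54. Nonsense-mediated decay factors, which degrade transcripts with early stop codons, fell in 5 of 10 and rose in none, with Smg5 at -0.41 and Upf1 at -0.35. Of 9 microRNA processing genes, 2 were higher and 3 lower (Ago2 -0.31), and of 9 paraspeckle proteins, 1 was higher and 1 lower. With lists of this size, counts near those shares are no result about a list. Genes of imprinted clusters, several of which contain lncRNA genes, rose in 7 cases and fell in 1 of 9, with Igf2 at 2.06, Igf2r at 1.14 and Peg3 at -0.76. Median log2 fold changes were 0.24 for snoRNP, -0.26 for decay, 0.05 for microRNA processing, -0.07 for paraspeckle and 1.10 for imprinted genes, against 0.02 over all genes tested.

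None of the 314 genes carries a symbol, so lists of known lncRNA genes (Gas5, Malat1, Meg3 and others) matched none of them. The table names 4 genes of those lists. H19, an imprinted lncRNA beside Igf2, had 4.20, 4.63 and 1.99 CPM in rcMSC and 16.2, 15.9 and 15.1 CPM in rbMSC, with no overlap and a log2 fold change of -2.12 (adjusted p = 5.56e-05). Tug1 had 14.9, 13.3 and 12.5 CPM in rcMSC and 13.2, 14.2 and 14.5 CPM in rbMSC, which overlapped, and did not pass (-0.03). Rpph1, the RNA component of RNase P, had 672, 791 and 514 CPM in rcMSC and 434, 413 and 464 CPM in rbMSC, with no overlap and a log2 fold change of 0.60 (adjusted p = 0.00375). Fendrr had 0.0743, 0 and 0.0382 CPM in rcMSC and 0.609, 0.608 and 0.199 CPM in rbMSC, too low to be tested.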

How the data were processed

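Per the labels' protocols, total RNA was sequenced as paired reads of 150 bases, trimmed with Trim Galore 0.6.7 and Trimmomatic 0.39, mapped to mRatBN7.2 with STAR 2.7.9a and counted in annotated genes with featureCounts 2.0.1; the submitters' processing notes also list DESeq2 1.20.0. The deposited table holds raw counts per gene and library, not normalized, with exon coordinates and a gene length. No source used here states the strand setting, the treatment of multi-mapped reads or the annotation release.

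CPM were computed from raw column totals. The differential test was edgeR 4.0.16 (R 4.3.3), quasi-likelihood, TMM scaling, filterByExpr, robust fit, Benjamini-Hochberg over 14836 genes, checked on simulated data. The nearest coding gene was taken by distance between gene bodies; 3706 coding rows came from the Type column and 18103 from the biotype of the matching RefSeq symbol (GRCr8), names only. Alternatives were limma 3.58.1 voom, DESeq2 1.42.0, other scaling, filters and level rules, a replicate block, and leaving out each library. Intervals cover counting error only; total counts per library limit the precision of levels near 2 CPM.

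The genes and all lists were chosen with earlier results of these data known. Named genes are the 8 largest rises and 8 largest falls among called genes without overlap, the 6 most abundant by CPM and by CPM per 1000 bases, 3 rows on each side of the threshold, the nearest coding gene of each, and list members; small RNA hosts, divergent, opposite and example pairs were added after their values were seen. A few results that these rules would name are not reported here. Sequences come from RefSeq tables; the lncRNA genes' own sequences are not used here.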

Additional observations from a re-analysis of the deposited data

How the results depend on the processing

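The counts of 37 higher and 103 lower lncRNA genes and the median log2 fold change of -0.21 kept their direction under RLE scaling, total counts only, both other filters, DESeq2 (35 higher, 108 lower), limma voom with quality weights (48 higher, 148 lower), a level rule of 1 CPM, TMM-scaled levels, without genes that overlap a coding gene and with 2 CPM or more required in both group means. With a level rule of 5 CPM, 60 of 188 genes were lower, with fewer genes to call. The median itself moved to -0.12. By level it was -0.42 between 2 and 5 CPM, -0.25 between 5 and 10, -0.06 between 10 and 50 and -0.09 at 50 CPM or more. Without genes that share an exon base with any row, an alternative chosen after seeing the data, 22 of 215 genes were higher, again with fewer genes to call. Leaving out each library in turn gave 30 to 48 higher and 86 to 151 lower genes and medians of -0.25 to -0.18; the upper ends of both counts came without the third rcMSC library.

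A fit with the replicate number as a block gave 34 higher and 103 lower genes and a median of -0.22. Deviations of libraries with the same number correlated at -0.0275, 0.018 and -0.0518, so the numbers were not taken to pair the libraries.

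Of 37 single genes followed through every alternative, 30 kept their call. The lncRNA beyond Col5a1 ran from -0.11 to 0.22 when libraries were left out in turn, with the reversed value without the third rcMSC library, and the cause was not tested. Just above 2 CPM, the genes beside Vezf1 and Eipr1 (both -0.97 without that library) passed under some alternatives only.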

Other observations

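Among lncRNA rows under 2 CPM, 314 passed the low-count filter, with a median log2 fold change of -0.33. Of these, 18 were higher (5.73%) and 57 lower (18.2%) in rcMSC, against 22.6% and 23.2% of all genes tested. One of the larger rises lay 166 bases before the start of Pou3f3, a POU homeobox gene of the nervous system and kidney, where the row had 80, 73 and 121 counts in rcMSC and 12, 3 and 5 in rbMSC (log2 fold change 3.57) beside 4.82 for Pou3f3. A row upstream of Galm, galactose mutarotase, had 79, 68 and 63 counts in rcMSC and 8, 5 and 9 in rbMSC, at 3.04 beside 0.32 for Galm. Divergent to Chchd7, a row had 3, 7 and 4 counts in rcMSC and 32, 32 and 31 in rbMSC (log2 fold change -2.92) beside -0.63 for Chchd7. In each of these rows the libraries of the sources did not overlap. The rows were chosen after their values were seen. The row beside a Hox gene, downstream of Hoxb7, had no count in rcMSC and 5, 1 and 1 counts in rbMSC and was not tested.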
